A study of Mus musculus with 12 samples.

Results

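Costimulatory receptors and their ligands were examined in CD8+ T_prog_ cells with and without UTX. The group was made up of 10 genes chosen by function, *Cd28*, *Icos*, *Cd2*, *Cd226*, *Cd27*, *Tnfrsf4*, *Tnfrsf9*, *Tnfrsf18*, *Cd80* and *Cd86*, out of 25860 genes in the count table. They were matched by gene symbol, and all 10 were found. The cells were sorted from the pancreatic lymph nodes (pLNs) of nonobese diabetic (NOD) mice that carry the NY8.3 T cell receptor transgene, which recognizes the β cell antigen IGRP. *NOD-TCR 8.3 UTX TCD* mice carried floxed alleles of *Kdm6a*, the X-linked gene for the histone demethylase UTX, together with Cre under the *Lck* promoter, which acts in T lineage cells. Cre-negative littermates served as UTX-sufficient controls in the parent line, and the controls of these libraries, *NOD-TCR 8.3 WT*, carried the same receptor transgene. Only female mice were used, and an age is not given for these libraries in the sources used here. The sample labels give the sort gate as Ly108+CXCR6- and the methods as Ly108+CD39-. RNA-seq and ATAC-seq, which maps open chromatin by transposase insertion, each had 3 libraries per genotype, described as biological replicates for ATAC-seq.

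A T cell needs a costimulatory signal beside that of its antigen receptor to divide, survive and gain effector function. CD28 and ICOS are CD28 family receptors that signal through PI3K, CD2 and CD226 couple adhesion to signalling, and CD27, OX40, 4-1BB and GITR are TNF receptor family members that signal through TRAF adaptors. CD80 and CD86 are the B7 ligands of CD28 and of its inhibitory counterpart CTLA-4, best known on antigen-presenting cells but also found on T cells.

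Reads recovered from the normalized counts numbered 146456724, 144503203 and 193568919 in the WT libraries and 61512402, 175462433 and 187275082 in the UTX TCD libraries. UTX TCD replicate 1 was the shallowest. *Kdm6a* had 28365, 28949 and 29172 normalized counts in WT libraries and 24159, 24792 and 24579 in UTX TCD libraries. All 3 UTX TCD libraries therefore lay below the WT libraries, with a log2 fold change of UTX TCD over WT of -0.23 (SE 0.04, limma adjusted p = 0.00114), and gene-level counts cannot tell the deleted exons from the others. The cells carried the markers of their label. The 5 CD8 T cell markers summed to 766577, 728119 and 746926 normalized counts in WT libraries and 761142, 741225 and 675806 in UTX TCD libraries, with *Cd8a* the most abundant. The 5 progenitor markers, led by *Tcf7*, summed to 617143, 605965 and 565795 in WT libraries and 638438, 595911 and 596120 in UTX TCD libraries, and none of these 10 markers was called. At the adjusted p limit alone, *Cd8b1* (log2 fold change -0.37), *Cd3d* (-0.28) and *Cd3g* (-0.26) passed as lower. *Cd3e* (0.17) and *Lef1* (0.38) passed as higher, all under the fold limit. Of the sort markers, *Slamf6*, which encodes Ly108, had a log2 fold change of 0.29 (limma adjusted p = 0.089), which did not pass the test. *Cd44*, an activation marker, had one of 0.17 (limma adjusted p = 0.0322), under the fold limit. The sort marker *Entpd1*, which encodes CD39, was near the floor, at 17.3 ± 10.7 (SD, n = 3) normalized counts in WT libraries and 7.24 ± 4.82 (SD, n = 3) in UTX TCD libraries. *Cxcr6* was read in both genotypes, at 12757, 9619 and 13724 normalized counts in WT libraries and 5286, 5994 and 5695 in UTX TCD libraries, and fell by 1.07 on the log2 scale (limma adjusted p = 0.000131).

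Expression was tested with limma on log2(normalized count + 1), and calls required both an adjusted p (Benjamini-Hochberg) under 0.05 and a log2 fold change beyond 0.5 in either direction. Of the 10 members, 4 were called, against 17.6% of the 14459 genes tested. *Cd80* rose, against 10.5% of tested genes called higher, and *Icos*, *Tnfrsf18* and *Cd86* fell, against 7.05% called lower. All 10 passed the filter on low counts, a mean of at least 10 normalized counts over the 6 libraries, but *Cd80* passed only through the UTX TCD libraries and so had to differ. At the adjusted p limit alone, 8 members passed, against 40.7% of tested genes, so many of the differences were small. The genotypes did not overlap for 9 members, against 51.9% of tested genes. The median log2 fold change was -0.20 over the members, -0.30 without *Cd80* and 0.00 over all tested genes. For any single gene, 3 libraries against 3 allow no exact permutation p below 0.1. In bulk samples, fewer cells expressing a gene and less RNA per cell cannot be told apart.

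**Figure D1:**
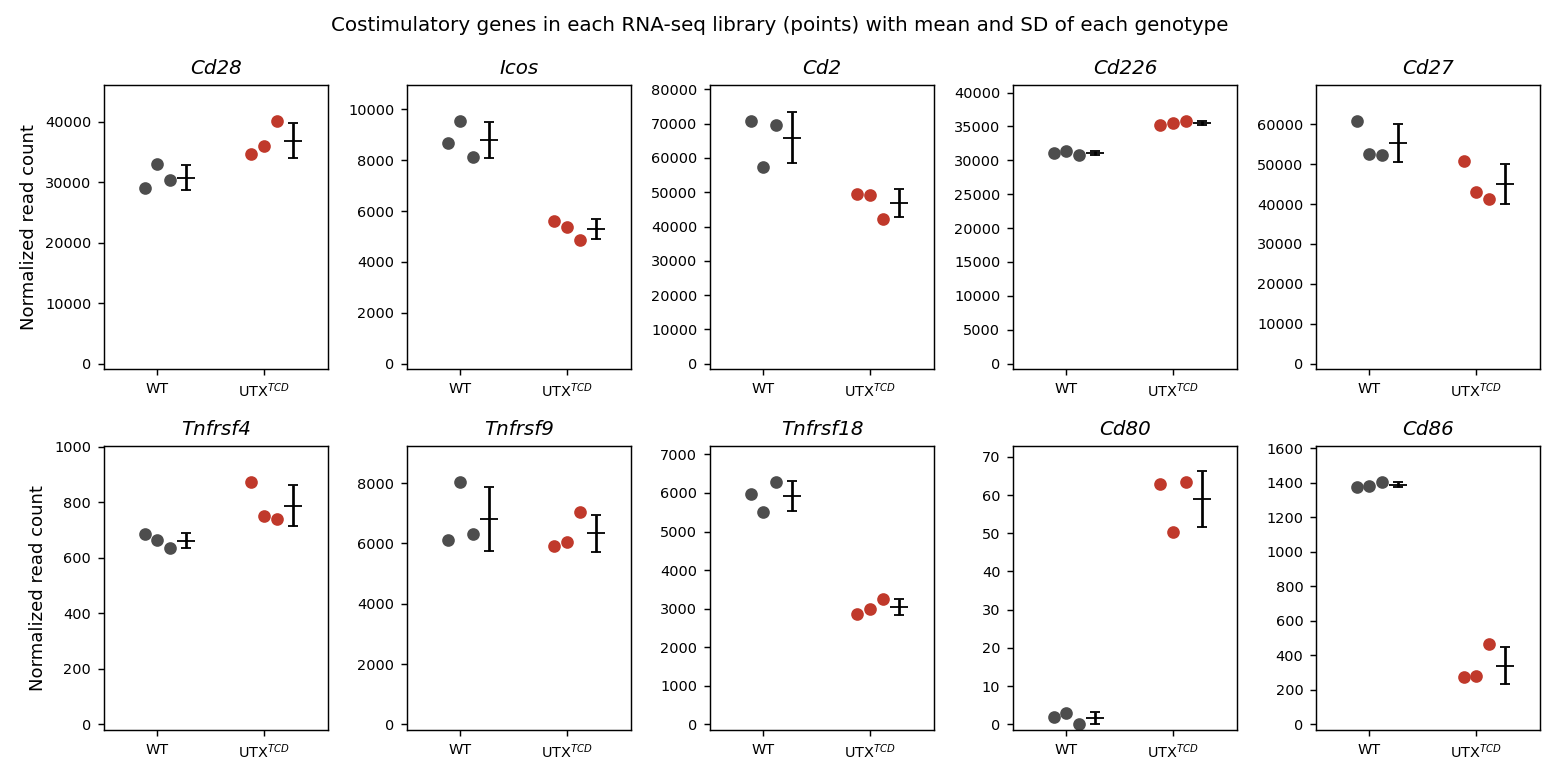
Normalized read counts (vertical axes, linear, each with its own scale) of the 10 costimulatory genes in the 3 WT and 3 UTX TCD libraries; points are libraries and black bars are the mean ± SD. The genotypes separate for every gene shown except *Tnfrsf9*, and most widely in proportion for *Cd80* and *Cd86*.

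Of the 2 CD28 family receptors among the members, *Icos* fell, and *Cd28* was not called. *Cd28* encodes the main costimulatory receptor of naive T cells. It had 29072, 32991 and 30367 normalized counts in WT libraries and 34650, 35951 and 40119 in UTX TCD libraries. All UTX TCD libraries were above all WT libraries, but the log2 fold change of 0.26 (95% confidence interval 0.11 to 0.41, limma adjusted p = 0.0127) was under the fold limit. *Icos* encodes the inducible receptor that T cells display after activation. It had 8687, 9532 and 8130 normalized counts in WT libraries and 5605, 5392 and 4859 in UTX TCD libraries. Every UTX TCD library was below every WT library, and *Icos* fell by 0.73 on the log2 scale (SE 0.07, limma adjusted p = 7.72e-05), to 0.602 of the WT mean.

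Of the adhesion receptors, *Cd2*, whose protein binds CD48 in mice, had 70704, 57344 and 69765 normalized counts in WT libraries and 49437, 49257 and 42214 in UTX TCD libraries. The UTX TCD libraries were all lower, and WT replicate 2 was the WT library nearest to them. The log2 fold change of -0.49 (95% confidence interval -0.69 to -0.28, limma adjusted p = 0.00257) lay just inside the fold limit, so *Cd2* was not called. It passed the limit without WT replicate 2 (-0.58), UTX TCD replicate 1 (-0.53) or UTX TCD replicate 2 (-0.52). *Cd226* encodes DNAM-1, which binds the nectin family proteins CD155 and CD112. It had 31123, 31439 and 30833 normalized counts in WT libraries and 35252, 35510 and 35764 in UTX TCD libraries. Relative to the mean, its libraries were the most alike of any member within each genotype, with an SD of 303 in WT libraries and 256 in UTX TCD libraries, and the genotypes stood clear of each other. The log2 fold change was nonetheless small, at 0.19 (95% confidence interval 0.11 to 0.27, limma adjusted p = 0.00312), and *Cd226* was not called.

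Among the TNF receptor family members, *Cd27* encodes a receptor for CD70 that is carried by naive and memory T cells. It had 60734, 52531 and 52370 normalized counts in WT libraries and 50807, 42894 and 41295 in UTX TCD libraries. The highest UTX TCD library was close under the lowest WT library, and the log2 fold change was -0.30 (95% confidence interval -0.49 to -0.10, limma adjusted p = 0.0218), under the fold limit. *Tnfrsf4*, which encodes OX40, a receptor induced by activation, had 686, 663 and 635 normalized counts in WT libraries and 873, 752 and 739 in UTX TCD libraries. The groups did not overlap, but the log2 fold change of 0.25 (95% confidence interval 0.03 to 0.47) did not pass the adjusted test (limma adjusted p = 0.0714). *Tnfrsf9*, which encodes the activation-induced receptor 4-1BB, had 6117, 8036 and 6305 normalized counts in WT libraries and 5911, 6051 and 7029 in UTX TCD libraries. It was the only member whose genotypes overlapped, with a log2 fold change of -0.10 (95% confidence interval -0.34 to 0.14, limma adjusted p = 0.486). Without WT replicate 2, its highest library, the value was 0.023.

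*Tnfrsf18* encodes GITR, a receptor raised on activated T cells and constitutive on regulatory T cells. It had 5971, 5500 and 6284 normalized counts in WT libraries and 2866, 2985 and 3263 in UTX TCD libraries. Each UTX TCD library was far below each WT library, and *Tnfrsf18* fell by 0.96 on the log2 scale (SE 0.07, limma adjusted p = 1.28e-05), to 0.513 of the WT mean. Its exons share 414 bases with *Gm16008* on the other strand, and the strand setting of the counting is not given in the sources used here, so reads of this pair may not be told apart. *Gm16008* itself had 54.5, 29.6 and 46.5 normalized counts in WT libraries and 20.2, 16.8 and 20.6 in UTX TCD libraries, far fewer than *Tnfrsf18*. *Tnfrsf4* and *Tnfrsf18* are neighbours on chromosome 4 in the same orientation, and only *Tnfrsf18* was called. Because ICOS and GITR are also abundant on regulatory and other CD4 T cells, the 3 CD4 T cell markers were read beside them. They summed to 475, 373 and 442 normalized counts in WT libraries and 373, 350 and 344 in UTX TCD libraries, and *Foxp3*, the most abundant of them, did not pass the test (limma adjusted p = 0.809). *Cd4* and *Zbtb7b* were called lower, none of the 3 was at or under 3 reads in every library, and their part in the falls of *Icos* and *Tnfrsf18* was not tested.

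The B7 ligands gave the largest changes among the members, in opposite directions. *Cd80* had 1.98, 2.96 and 0 normalized counts in WT, which were 2, 3 and 0 reads. In UTX TCD cells it had 63.0, 50.4 and 63.4 normalized counts, from 28, 63 and 86 reads. WT cells were thus at or under a floor of 3 reads in every library, while all UTX TCD libraries had a low but countable level. Over the group, 5 reads in WT stood against 177 in UTX TCD cells, a depth-adjusted ratio of 38.7 (exact 95% interval 16.3 to 121, for counting error only). The fitted log2 fold change was 4.71 (SE 0.55, limma adjusted p = 0.000188) and depended on the settings, from 3.29 with a pseudocount of 5 to 5.26 with DESeq2 over 14 alternatives. *Cd86* had 1377, 1383 and 1405 normalized counts in WT libraries and 274, 282 and 464 in UTX TCD libraries. WT libraries were nearly equal, and all UTX TCD libraries were lower, with replicate 3 the highest of them. *Cd86* fell by 2.07 on the log2 scale (SE 0.18, limma adjusted p = 4.11e-05), to 0.245 of the WT mean.

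Since CD80 and CD86 mark antigen-presenting cells, the markers of those cells were read beside them. The 9 dendritic cell or macrophage markers summed to 506, 529 and 422 normalized counts in WT libraries and 529, 536 and 823 in UTX TCD libraries, and *Cd74*, the most abundant, had 255 to 315 in WT libraries and 333 to 630 in UTX TCD libraries. Of the 6 tested, *H2-Ab1* was called higher and *Csf1r* and *Itgax* lower, but *Csf1r* and *Itgax* passed the filter only through the WT libraries and so had to differ. The 5 B cell markers summed to 2951, 2437 and 2800 in WT libraries and 1221, 1082 and 1000 in UTX TCD libraries. Most of the sum in WT libraries was *Cd79b*, which fell from 2502, 1930 and 2465 to 648, 633 and 470 normalized counts, while *Ms4a1* was called higher. No marker of either list was at or under 3 reads in every library. The 3 NK cell markers summed to 13406, 15370 and 13193 in WT libraries and 19113, 19092 and 26857 in UTX TCD libraries, nearly all of it *Eomes*, which memory CD8+ T cells also express. *Eomes* was called higher, with a log2 fold change of 0.62 (limma adjusted p = 0.00388). The part of other cells in the levels of *Cd80* and *Cd86* was not tested.

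Per kb of annotated exon, the members spanned a wide range of levels. In WT cells the mean was 37873 ± 4283 (SD, n = 3) normalized counts per kb for *Cd2* and 23716 ± 2055 for *Cd27*, the highest levels. *Cd226* followed at 6365 ± 61.9 and *Cd28* at 5033 ± 326 normalized counts per kb. *Tnfrsf18* was at 3884 ± 259, *Icos* at 2561 ± 206 and *Tnfrsf9* at 2505 ± 389 normalized counts per kb. The libraries of *Icos* and *Tnfrsf9* overlapped, so their order was not resolved, whereas every other pair of neighbours in this order was apart in all WT libraries. *Tnfrsf4* at 485 ± 19.1, *Cd86* at 379 ± 3.99 and *Cd80* at 0.445 ± 0.407 normalized counts per kb were the lowest. In UTX TCD cells *Tnfrsf9* had 2326 ± 224 normalized counts per kb, above *Tnfrsf18* at 1993 ± 134 and *Icos* at 1541 ± 112. *Tnfrsf18*, above *Tnfrsf9* in every WT library, was below it in every UTX TCD library.

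Chromatin accessibility was described from the authors' mean log2 concentration of each peak per genotype, without replicate spread and so without a test. The table lists only peaks under the FDR limit of the authors' comparison and sets no limit on the size of the difference, so a peak that is not listed is not known to be closed or unchanged. Of 23932 listed peaks, 38 were named for a member, 28 more and 10 less accessible in UTX TCD cells. Of the 38, 73.7% were more accessible, against 68.8% of all listed peaks, so the members' share was near that of the whole list. An absolute difference over 0.5 was reached by 22 of the 38, or 57.9%, against 73.1% of all listed peaks. *Cd226* had 15 of these peaks, *Cd28* 9, *Icos* 4, *Cd2* 3, *Cd80*, *Tnfrsf9* and *Tnfrsf18* 2 each, and *Tnfrsf4* 1. No peak was named for *Cd27* or *Cd86*.

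At *Cd80*, both listed peaks were in introns of the gene and more accessible in UTX TCD cells, the direction of its RNA. The larger difference was at chr16:38476608-38477008 (mm10) in intron 2 of 5, where the authors' mean log2 concentration was 7.59 in WT libraries and 8.51 in UTX TCD libraries, a difference of 0.91. The other, in intron 4, differed by 0.54. At *Cd2*, all 3 peaks lay between genes and were less accessible, in the direction of its lower counts. The largest difference was at chr3:101238779-101239179, 49.0 kb downstream of the annotated start, from 8.88 in WT to 7.88 in UTX TCD cells. *Cd226* had 14 of 15 peaks more accessible, and 8 of them lay in introns of the gene itself, with differences of 0.31 to 0.67. Its largest difference, 1.88, was at chr18:89304504-89304904, in an intron of the neighbouring gene *Dok6*. The authors' peak annotation lists this peak 107 kb from the *Cd226* start, counted from a start inside the RefSeq and GENCODE gene bodies. The only less accessible *Cd226* peak was in an intron of *Rttn*.

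At *Icos*, whose RNA fell, 3 of 4 peaks were more accessible, a share of 75% against 68.8% of all listed peaks. The only promoter peak of any member was at the *Icos* start, at chr1:60977668-60978068, and was more accessible in UTX TCD cells, at 10.29 in WT libraries and 10.72 in UTX TCD libraries (a difference of 0.43). A peak in intron 1 differed by 0.70 and one 158 kb downstream by 0.37, both in the same direction. The largest difference at *Icos* was a loss, at chr1:61035305-61035705, 57.6 kb downstream of the start between genes, from 6.83 to 5.60 (a difference of -1.23). At *Cd28*, which lies on the same chromosome, 7 of 9 peaks were more accessible, including all 4 in its introns, with differences of 0.28 to 0.41. The largest difference at *Cd28* was a loss of 0.98, at chr1:60811943-60812343 between genes, from 8.37 to 7.39.

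**Figure D2:**
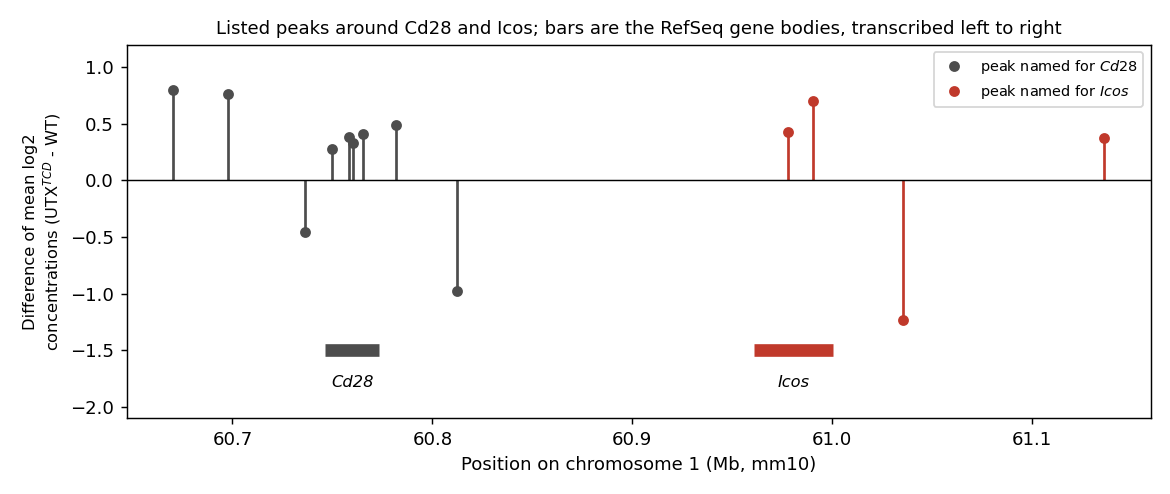
Listed ATAC-seq peaks named for *Cd28* (grey) and *Icos* (red) by position on chromosome 1 (Mb, mm10), with the difference of the authors' mean log2 concentrations, UTX TCD minus WT, on the vertical axis; bars show the gene bodies in RefSeq. Peaks in these RefSeq bodies are above 0, the *Cd28* peak at -0.45 lies before the RefSeq start but inside the longer GENCODE body, and the largest difference of each gene is a loss downstream of it, -0.98 for *Cd28* and -1.23 for *Icos*.

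*Tnfrsf18* had 1 less and 1 more accessible peak, both downstream of the gene. The larger difference was at chr4:156032673-156033073, 6.55 kb from the *Tnfrsf18* start between genes, from 9.21 to 8.25 (a difference of -0.96), and the other, in an exon of *Ttll10*, differed by 0.45. The single peak of *Tnfrsf4*, at chr4:156004097-156004497 in an intron of *Sdf4*, differed by 0.26. Both *Tnfrsf9* peaks were less accessible although its RNA did not pass the test, at -0.40 in intron 1 and -0.58 at chr4:150951001-150951401 between genes. Although no peak was named for *Cd86*, 2 listed peaks named for *Casr* lay within 50 kb of the gene as GENCODE draws it, and within its longer RefSeq span. They were more accessible in UTX TCD cells, by 0.69 and 1.08, whereas *Cd86* RNA fell. Near *Cd27*, 2 listed peaks named for *4930417O13Rik* were less accessible, by -1.02 and -0.69.

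**Figure D3:**
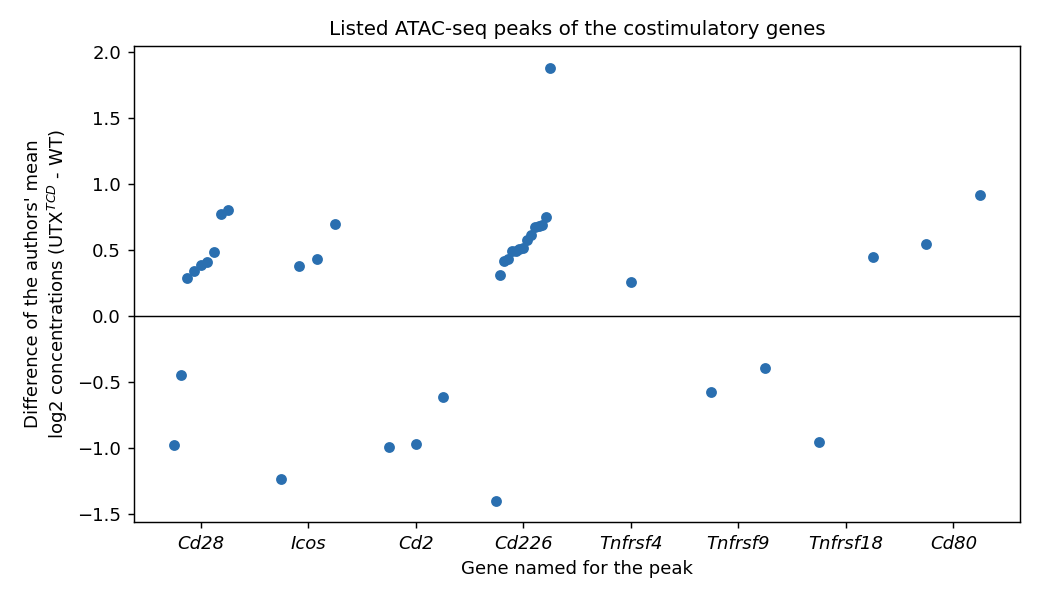
Difference of the authors' mean log2 concentrations, UTX TCD minus WT (vertical axis), for each of the 38 listed peaks by the gene it is named for (horizontal axis; points are peaks, spread by value within a gene). *Cd2* and *Tnfrsf9* have only less accessible peaks, *Cd80* and *Tnfrsf4* only more accessible ones, and *Cd226* spans -1.40 to 1.88.

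The central 201 bases of the peak with the largest difference are shown for each called member that had a listed peak, because these are peaks named for a changed transcript. They were read on the plus strand from the RefSeq GRCm38.p6 genome, the build of the peak coordinates and the sequence of C57BL/6J rather than NOD mice, at chr1:61035405-61035605 for *Icos*, chr4:156032773-156032973 for *Tnfrsf18* and chr16:38476708-38476908 for *Cd80*.
*Icos*: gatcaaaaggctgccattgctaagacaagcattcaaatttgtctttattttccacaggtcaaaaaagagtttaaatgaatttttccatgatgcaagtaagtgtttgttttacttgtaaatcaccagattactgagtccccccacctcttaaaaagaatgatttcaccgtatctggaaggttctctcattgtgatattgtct
*Tnfrsf18*: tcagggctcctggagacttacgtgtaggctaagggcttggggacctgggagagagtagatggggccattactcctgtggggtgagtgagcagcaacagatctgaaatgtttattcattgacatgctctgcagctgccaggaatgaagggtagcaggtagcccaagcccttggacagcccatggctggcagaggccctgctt
*Cd80*: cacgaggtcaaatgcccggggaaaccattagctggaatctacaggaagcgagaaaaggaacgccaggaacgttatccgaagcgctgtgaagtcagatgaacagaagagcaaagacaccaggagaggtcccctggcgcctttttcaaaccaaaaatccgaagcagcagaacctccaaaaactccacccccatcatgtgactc
The motifs searched, on both strands, were a TCF core CTTTGA, a STAT site TTCNNNGAA, an AP-1 site TGANTCA and a RUNX site TGTGGT, and a match would be in capitals. No match was found in the 3 windows, which says nothing of the factors. In the same central 201 bases of the 23908 listed peaks on assembled chromosomes, 19.1% held the TCF core, 5.89% the STAT site, 7.60% the AP-1 site and 28.2% the RUNX site. The share of G and C was 35.3% in the *Icos* window, 55.7% in that of *Tnfrsf18* and 51.2% in that of *Cd80*.

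Of 62 other genes of these pathways, 61 were listed and 55 tested, and 4 were called higher and 7 lower, 20% of those tested against 17.6% of all tested genes, so the share was near the background. Among 11 ligands of the receptors, 7 were tested, with 3 called higher, 2 lower and a median log2 fold change of 0.16. *Tnfsf4*, which encodes the OX40 ligand, had 79.2, 112 and 77.0 normalized counts in WT libraries and 598, 595 and 823 in UTX TCD libraries. All UTX TCD libraries were several times any WT library, a log2 fold change of 2.90 (SE 0.20, limma adjusted p = 9.06e-06), while the receptor *Tnfrsf4* was not called. *Icosl*, the ICOS ligand gene, had 431, 372 and 391 normalized counts in WT libraries and 146, 163 and 194 in UTX TCD libraries. The groups were apart, and *Icosl* fell by 1.25 on the log2 scale (SE 0.15, limma adjusted p = 0.000218), so that receptor and ligand were both called lower. *Cd48*, the ligand gene of CD2, fell by 0.51 (limma adjusted p = 0.000261), but was under the fold limit with libraries scaled to the same sum (-0.45) and without WT replicate 1 (-0.47) or WT replicate 3 (-0.48). *Tnfsf9*, which encodes the 4-1BB ligand, rose with a log2 fold change of 0.65 (limma adjusted p = 0.0165) and *Tnfsf14*, which encodes LIGHT, with one of 0.55 (limma adjusted p = 0.0109). The call of *Tnfsf9* was lost without UTX TCD replicate 1 (0.60) or UTX TCD replicate 2 (0.52), and that of *Tnfsf14* without WT replicate 1 (0.45). *Cd70*, the CD27 ligand gene, was at 0 reads in all 6 libraries, *Tnfsf18* and *Nectin2* were under the filter, and *Pvr*, which encodes CD155, had a log2 fold change of -0.09 (limma adjusted p = 0.381).

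Of 12 other costimulatory receptors, 10 were tested, with 1 called higher and 3 lower. That was 40% of those tested, against 17.6% of all tested genes, and their median log2 fold change was -0.20. *Cd7*, an immunoglobulin family receptor of T and NK cells, had 15212, 14948 and 15430 normalized counts in WT libraries and 3419, 3434 and 3419 in UTX TCD libraries, and fell by 2.15 on the log2 scale (SE 0.04, limma adjusted p = 6.08e-09). *Tnfrsf1b*, which encodes TNF receptor 2, fell by 1.30 (limma adjusted p = 8.43e-07), and *Tnfrsf25*, which encodes death receptor 3, rose with a log2 fold change of 0.90 (limma adjusted p = 2.60e-05). *Crtam* fell by 0.50 (limma adjusted p = 0.000221), and lost its call with libraries scaled to the same sum (-0.44) and without WT replicate 2 (-0.45), UTX TCD replicate 1 (-0.49) or UTX TCD replicate 2 (-0.47).

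The list of inhibitory receptors also held the ligand gene *Cd274*. Of its 6 tested genes, 1 was called, or 16.7%, against 17.6% of all tested genes. This was *Cd160*, which was lower and whose product binds HVEM. The median log2 fold change of the list, with *Cd274* counted, was -0.20. *Ctla4*, which competes with *Cd28* for CD80 and CD86, had 741, 830 and 766 normalized counts in WT libraries and 666, 711 and 997 in UTX TCD libraries, a log2 fold change of 0.00 (95% confidence interval -0.33 to 0.33). *Cd274*, whose protein PD-L1 also binds CD80, had a log2 fold change of 0.48 (limma adjusted p = 0.000182), under the fold limit, which it passed with libraries scaled to the same sum (0.54) and without UTX TCD replicate 3 (0.54). *Tigit* and *Cd96* compete with *Cd226* for CD155, with log2 fold changes of -0.39 (limma adjusted p = 0.486) and -0.48 (limma adjusted p = 0.000557), neither called, and *Cd96* passed the fold limit without WT replicate 2 (-0.54), UTX TCD replicate 1 (-0.51) or UTX TCD replicate 2 (-0.51). *Cd160*, a receptor for the TNF receptor family member HVEM, fell by 2.18 on the log2 scale (SE 0.14, limma adjusted p = 7.83e-06). Downstream, none of the 21 genes of CD28, ICOS and CD2 signalling was called, against 17.6% of all tested genes. Their median log2 fold change was -0.09. At the adjusted p limit alone, 40.7% of all tested genes passed. Of these signalling genes, *Malt1* (-0.42), *Pik3r1* (-0.36), *Akt2* (-0.25), *Arhgap15* (-0.205), *Bcl10* (-0.20), *Lck* (-0.17) and *Grb2* (-0.15) passed it as lower. *Pik3cd* (0.23) passed it as higher, and all were under the fold limit. Of 11 genes of TRAF signalling, only *Traf5*, an adaptor of CD27, OX40 and GITR, was called, 9.09% of those tested. It fell by 0.63 on the log2 scale (SE 0.08, limma adjusted p = 0.000227). *Tnfaip3* (-0.35) and *Map3k14* (-0.18) passed the adjusted p limit alone as lower, and *Birc2* (0.24) and *Traf6* (0.18) as higher.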

How the data were processed

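RNA-seq reads were aligned to mm10 with HISAT2 and counted with featureCounts, and the authors scaled the libraries by DESeq2 size factors. These deposited normalized counts are a signal without negative values. For ATAC-seq the authors used cutadapt, Bowtie2, MACS2, DiffBind and HOMER, and deposited mean log2 concentrations per genotype. Both tables also hold the authors' own fold changes and adjusted p-values, which were not used. Gene annotation, strand setting and any transposase shift are not given in the sources used here. Dividing each library by its smallest value returned whole reads for 100% of values (within 0.01). Genes with a mean of at least 10 were fitted on log2(value + 1) with limma 3.58.1 in R 4.3.3, genotype the only term. The fit was tested on simulated data. edgeR 4.0.16 called 2541 genes and DESeq2 1.42.0 2422 on the recovered reads. Exon lengths came from GENCODE. Members and lists were chosen with earlier results of these data known. Named were all members, *Kdm6a*, sort markers, *Cd44*, binding partners, up to 6 called genes of each pathway list, the most abundant marker of each cell type, and each member's promoter peaks and peak of largest difference; other called markers and peaks were named after their values were seen. The result for 1 item on these lists is not reported here.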

Additional observations from a re-analysis of the deposited data

How the results depend on the processing

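Without a fold limit, 5887 genes were called in place of 2538, 8 members in place of 4 and 26 pathway genes in place of 11. *Cd27* missed the adjusted p limit with libraries scaled to the same sum (limma adjusted p = 0.0605). It also missed it without WT replicate 1 (0.0793), UTX TCD replicate 2 (0.0756) or UTX TCD replicate 3 (0.0704). *Cd28* missed the limit without WT replicate 1 (0.05355), and *Tnfrsf4* passed it with libraries scaled to the same sum (0.0368). Of the 38 peaks of the members, 22 had an absolute difference over 0.5 and 3 had one over 1. By the start in the authors' peak annotation, 24 lay within 50 kb. For *Cd226*, that start lies inside the RefSeq and GENCODE gene bodies. *Icos*, *Tnfrsf18* and *Cd86* were called in all 15 other fits of pseudocount, filter, scaling, test, replicate block and left-out library. *Cd80* was called in the 14 that tested it, since a mean of at least 50 left it untested. Where the filter on low counts was kept, *Cd80* passed it only through the UTX TCD libraries and so had to differ. Leaving out 1 library moved the log2 fold change of *Tnfrsf9* between -0.18 and 0.023, of *Tigit* between -0.65 and 0.065 and of *Ctla4* between -0.18 and 0.11; none of these passed the test, and the sign turned without WT replicate 2 for *Tnfrsf9* and *Tigit*, and without WT replicate 1 (-0.035), WT replicate 3 (-0.011) or UTX TCD replicate 3 for *Ctla4*. The cause was not tested. Same-numbered libraries are of different genotypes and so of different mice, and the sources used here give no link between them beyond the number. Deviations of same-numbered libraries correlated at 0.305, -0.200 and 0.0897, and WT replicate 3 correlated best with UTX TCD replicate 2 (0.294). With the replicate block, 2474 genes and 4 members were called. The alternative fits of named genes outside the members were chosen after seeing the data. Depth limits *Cd80* in WT cells, where 3 reads equal 2.97, 2.96 and 2.29 normalized counts.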

Other observations

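The accessibility of several pathway genes beside the members differed widely; these peaks were chosen after their values were seen. All 6 listed peaks named for *Cd7* were less accessible in UTX TCD cells, with differences of the authors' mean log2 concentrations down to -2.76, and so were all 6 named for *Tnfrsf1b*, down to -1.22. The *Cd40* promoter peak was more accessible, at 5.78 in WT and 7.28 in UTX TCD cells. *Cd40* RNA was under the filter on low counts and not tested. It was at 0 in all WT libraries and at 4.50, 3.20 and 5.16 normalized counts in UTX TCD libraries. These came from 2, 4 and 7 reads, near the floor of 3 reads. The promoter peak of *Lck*, whose promoter drives the Cre of the UTX TCD mice, was at 11.96 in WT and 14.74 in UTX TCD cells, a difference of 2.79, and *Lck* RNA had a log2 fold change of -0.17 (adjusted p = 0.0225 from limma). The part of the transgene in that peak was not tested.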
